A study of Arabidopsis thaliana with 30 samples.

Results

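A set of 12 probe sets, of 22746 on the Arabidopsis ATH1 GeneChip without its controls, carried much more signal in late lec1-1 seed than in any wild-type group. The set was chosen by measured signal. A probe set entered it when its mean signal plus 50 was at least 4 times that of the highest of the 5 wild-type groups, both in mature green and in post-mature green lec1-1 seed. This condition was met by 14 probe sets, and DI21 and AT5G19100 were left out by name. AT4G30650, which was also to be left out, did not meet it. Of the 12, 6 name 1 gene each, 1 names both KIN1 and KIN2, and 5 have no gene name in the annotation used here and are given by their probe set identifiers.

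LEAFY COTYLEDON1 (LEC1) is a subunit of the NF-Y transcription factor and is known for its part in embryo development and seed maturation, when storage reserves and desiccation tolerance are built up. KIN1 and KIN2 are cold- and abscisic acid-responsive genes. The plastid genes rpoA, rpl33 and rps18 encode a subunit of the plastid's own RNA polymerase, a protein of the large subunit of the plastid ribosome and a protein of its small subunit. They therefore belong to the machinery that expresses the plastid genome, and neighbouring plastid genes are often transcribed together.

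RNA came from seeds or seedlings of ecotype Ws-0, grown in continuous light, either wild type or carrying the lec1-1 allele in that background. The ATH1 arrays formed 10 groups of 2 biological replicates. Seeds of both genotypes were taken at 24 hours after fertilization, at the cotyledon stage, when mature green and when post-mature green. Wild-type seedlings 3 days after imbibition and lec1-1 seeds with globular embryos completed the set. A second chip, AtGenome1, carried 5 groups of 2 technical replicates, so that each group was 1 sample. It held 24-hour and mid-maturation seed of wild type and of lec1, whose labels give no allele number, and late-maturation seed of wild type alone. Whole seeds were measured, so fewer cells of a type and less RNA per cell cannot be told apart.

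Median signals of the ATH1 arrays ranged from 176.8 to 217.4, and the 2 arrays of a group correlated with an r of 0.935 to 0.982. With so few arrays a group, their number limits the precision. LEC1 itself was not analysed here, so the genotype labels were not checked through it. The labels state an array lot for 8 of the 20 ATH1 arrays and none for the others, and the 4 late lec1-1 arrays are all among the latter, as are 3 wild-type arrays (post-mature green replicate 2 and both seedlings). At the cotyledon and mature green stages, stated lot and genotype cannot be told apart.

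In all 12 members each of the 4 late lec1-1 arrays lay above each of the 10 wild-type arrays. Over the whole chip 583 probe sets, or 2.56%, had this order, and the choice of members all but fixes it for them, so it is a description. The same 4 arrays lay above the 6 arrays of younger lec1-1 seed in 12 of 12 members as well. Over the whole chip 2677 probe sets, or 11.8%, had this order, and since the members were chosen for high late lec1-1 arrays, it is a description too. The lowest late lec1-1 array exceeded the highest younger lec1-1 array by 1.53 times for 250565_at and by 121 times for AT5G55450.

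**Figure D1:**
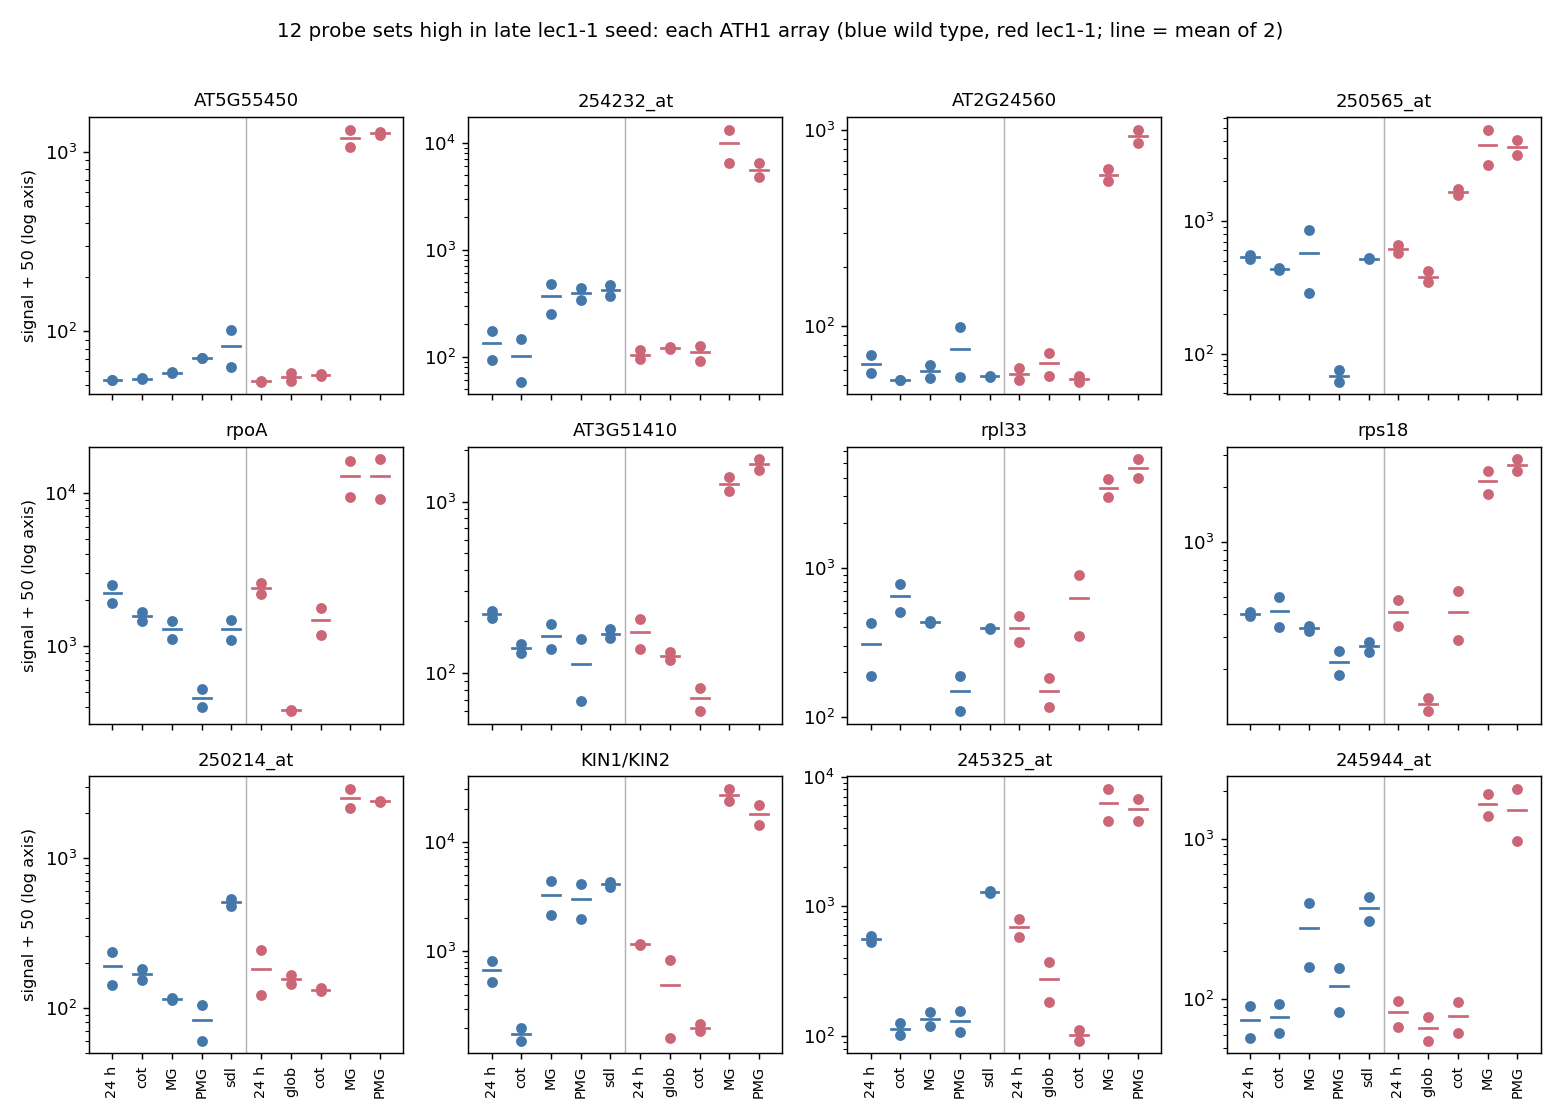
Signal plus 50 (log axis) of each of the 12 members on each ATH1 array, blue for wild type and red for lec1-1, with a line at the mean of 2 arrays; cot is cotyledon stage, MG mature green, PMG post-mature green, sdl seedling and glob globular stage. In every panel the 4 late lec1-1 points at the right stand above all the others, while the blue points differ widely between panels in level and in the stage where they peak.

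The word ectopic, by which the set was proposed, applied to few of the members. Only AT5G55450 and AT2G24560, 2 of 12, stayed below a signal of 100 on all 10 wild-type arrays, and the other 10 members reached 100 on at least 1 of them. The wild-type group with the highest mean was the seedling for 6 members, 24-hour seed for 2, cotyledon-stage seed for 2, mature green seed for 1 and post-mature green seed for 1. The members are therefore described here as raised in late lec1-1 seed rather than as expressed out of place.

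AT5G55450, a member of the lipid-transfer and protease-inhibitor protein family, was the clearest case of a gene near background everywhere else. In wild type it read 3.7 and 3.4 at 24 hours, 4.7 and 4.4 at the cotyledon stage, 8.5 and 9.4 in mature green seed, 20.8 and 21.4 in post-mature green seed, and 13.3 and 51.6 in seedlings. In lec1-1 it read 2.6 and 2.8 at 24 hours, 3.2 and 8.4 at the globular stage and 6.5 and 8.1 at the cotyledon stage, and then 1019.6 and 1275.8 in mature green and 1190.3 and 1240.5 in post-mature green seed. The late lec1-1 arrays stood apart from the other 16 and differed little among themselves. Because a dim signal makes a ratio depend on the offset, the late means (geometric) are given against a signal of 100, over which they were at least 11.4-fold higher in mature green and at least 12.2-fold higher in post-mature green seed.

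AT2G24560, a gene of the GDSL lipase family, showed the same form at a lower level. Its wild-type arrays read 7.5 and 21.1 at 24 hours, 3.3 and 3.2 at the cotyledon stage, 4.4 and 13.2 in mature green seed, 4.8 and 48.7 in post-mature green seed and 4.7 and 5.9 in seedlings. Its lec1-1 arrays read 10.9 and 3.0 at 24 hours, 5.8 and 23.1 at the globular stage, 2.1 and 5.5 at the cotyledon stage, 503.5 and 584.0 in mature green and 809.2 and 956.7 in post-mature green seed. Both post-mature green lec1-1 arrays were above both mature green ones, and both pairs were clear of all other arrays. Against a signal of 100 the rise was at least 5.42-fold in mature green and at least 8.80-fold in post-mature green seed.

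AT3G51410 was dim but not absent in wild type. Its signals there were 180.0 and 159.9 at 24 hours, 81.6 and 98.3 at the cotyledon stage, 87.7 and 142.7 in mature green seed, 107.7 and 18.6 in post-mature green seed and 109.3 and 129.6 in seedlings. In lec1-1 they were 158.0 and 88.9 at 24 hours, 82.5 and 69.2 at the globular stage and 10 and 32.4 at the cotyledon stage, before 1347.5 and 1094.2 in mature green and 1484.5 and 1710.5 in post-mature green seed. Cotyledon-stage lec1-1 seed thus had the lowest mean of the 10 groups. On the signal-plus-50 scale its late lec1-1 means were 5.78 and 7.49 times the highest wild-type mean, that of 24-hour seed.

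The probe set that KIN1 and KIN2 share does not tell these adjacent genes apart. It read 761.7 and 479.5 in wild-type 24-hour seed, 149.2 and 103.7 at the cotyledon stage, 4284.9 and 2100.9 in mature green seed, 4021.4 and 1918.6 in post-mature green seed and 4255.6 and 3819.4 in seedlings. In lec1-1 it read 1114.7 and 1102.3 at 24 hours, 113.6 and 784.6 at the globular stage and 137.1 and 168.5 at the cotyledon stage, and then 30043.7 and 23386.4 in mature green and 21497.0 and 13970.7 in post-mature green seed. Wild-type seed thus also went from low at the cotyledon stage to high in late seed. The late lec1-1 means were 8.25 times the wild-type mean in mature green and 5.89 times in post-mature green seed, and 6.55 and 4.35 times the seedling mean, the highest of the wild type. The second of these rests on 1 array: without post-mature green lec1-1 replicate 1 the probe set no longer reached 4.

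rpoA was well measured in every group, so its late rise started from a high level. Wild type read 2465.0 and 1849.7 at 24 hours, 1622.2 and 1404.1 at the cotyledon stage, 1055.5 and 1413.3 in mature green seed, 473.6 and 348.2 in post-mature green seed and 1050.3 and 1423.4 in seedlings. lec1-1 read 2138.1 and 2526.0 at 24 hours, 327.0 and 334.9 at the globular stage, 1137.1 and 1709.4 at the cotyledon stage, 16128.7 and 9308.4 in mature green and 16428.4 and 9028.9 in post-mature green seed. Replicate 1 was 1.73 times replicate 2 in mature green and 1.82 times in post-mature green seed, and even the lower array was 3.66 times the highest wild-type array.

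rpl33 and rps18 lie next to each other in the plastid gene order of the TAIR10.1 annotation, between psaJ and rpl20, whereas rpoA lies elsewhere, beside petD. For rpl33 the wild-type arrays read 375.3 and 139.6 at 24 hours, 455.1 and 730.9 at the cotyledon stage, 393.0 and 379.3 in mature green seed, 140.2 and 60.1 in post-mature green seed and 339.4 and 347.5 in seedlings. Its lec1-1 arrays read 268.6 and 426.9 at 24 hours, 133.9 and 68.1 at the globular stage, 302.3 and 845.0 at the cotyledon stage, 3852.3 and 2922.7 in mature green and 5252.5 and 3911.0 in post-mature green seed. The globular stage was the lowest of lec1-1 and the post-mature green stage the lowest of wild type.

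rps18 followed its neighbour. In wild type it read 363.2 and 340.5 at 24 hours, 290.3 and 448.8 at the cotyledon stage, 274.4 and 295.9 in mature green seed, 135.3 and 201.2 in post-mature green seed and 233.8 and 199.9 in seedlings. In lec1-1 it read 297.6 and 429.5 at 24 hours, 88.7 and 67.7 at the globular stage, 239.7 and 487.3 at the cotyledon stage, 2422.6 and 1783.9 in mature green and 2797.1 and 2412.4 in post-mature green seed. For all 3 plastid members the wild type fell to its lowest mean in post-mature green seed, where lec1-1 stood at 27.7 times the wild type for rpoA, 30.8 times for rpl33 and 12.2 times for rps18 on the signal-plus-50 scale.

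The 5 probe sets without a gene name differed in their wild-type profiles. 254232_at ranged from 8.6 to 431.3 over the 10 wild-type arrays and from 42.1 to 76.9 over the younger lec1-1 arrays. It then read 6421.6 and 13147.8 in mature green and 4675.5 and 6343.9 in post-mature green lec1-1 seed, 23.5 and 13.3 times the highest wild-type mean.

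250565_at was the only member whose lec1-1 arrays were already clearly above wild type at the cotyledon stage. Wild type read 464.4 and 499.6 at 24 hours, 395.1 and 376.2 at the cotyledon stage, 238.2 and 804.2 in mature green seed, 11.5 and 24.5 in post-mature green seed and 465.0 and 477.3 in seedlings. lec1-1 read 524.1 and 608.6 at 24 hours, 293.8 and 366.6 at the globular stage, 1689.6 and 1513.9 at the cotyledon stage, 2583.0 and 4830.3 in mature green and 3121.2 and 4032.1 in post-mature green seed. Wild-type post-mature green seed was its lowest group.

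245325_at and 250214_at had their wild-type maximum in seedlings. 245325_at read 1256.0 and 1229.1 in seedlings, 542.3 and 477.1 in wild-type 24-hour seed, and between 51.8 and 104.8 on the other wild-type arrays. In lec1-1 it fell from 753.0 and 528.4 at 24 hours through 321.3 and 132.9 at the globular stage to 41.9 and 61.9 at the cotyledon stage, and then read 4485.2 and 7986.7 in mature green and 4503.8 and 6634.4 in post-mature green seed. 250214_at read 428.4 and 485.1 in seedlings and between 10.3 and 185.5 on the other wild-type arrays, and 2838.6 and 2120.4, then 2366.5 and 2305.9, in the late lec1-1 groups. Both probe sets thus had a seedling level that was high for wild type and several times lower than in late lec1-1 seed.

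245944_at was the member closest to the threshold. It read 258.0 and 382.7 in wild-type seedlings, 109.6 and 347.3 in mature green seed, and between 7.7 and 107.7 on the other wild-type arrays. In lec1-1 it read between 5.2 and 48.2 before the mature green stage, 1345.5 and 1859.8 in mature green and 923.3 and 1993.2 in post-mature green seed.

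The 3 members just inside the threshold had smaller folds of 4.35 (KIN1 and KIN2), 4.35 (245325_at) and 4.07 (245944_at). Just outside it were AT1G52000 at 3.92, 259878_at at 3.84 and the plastid gene psbJ at 3.73. There was no gap between the groups. Without lec1-1 mature green replicate 2 or post-mature green replicate 2, 245325_at and 245944_at no longer reached the threshold. 245944_at also missed it without replicate 1 of wild-type mature green seed or of seedlings, and the KIN probe set missed it without lec1-1 post-mature green replicate 1.

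**Figure D2:**
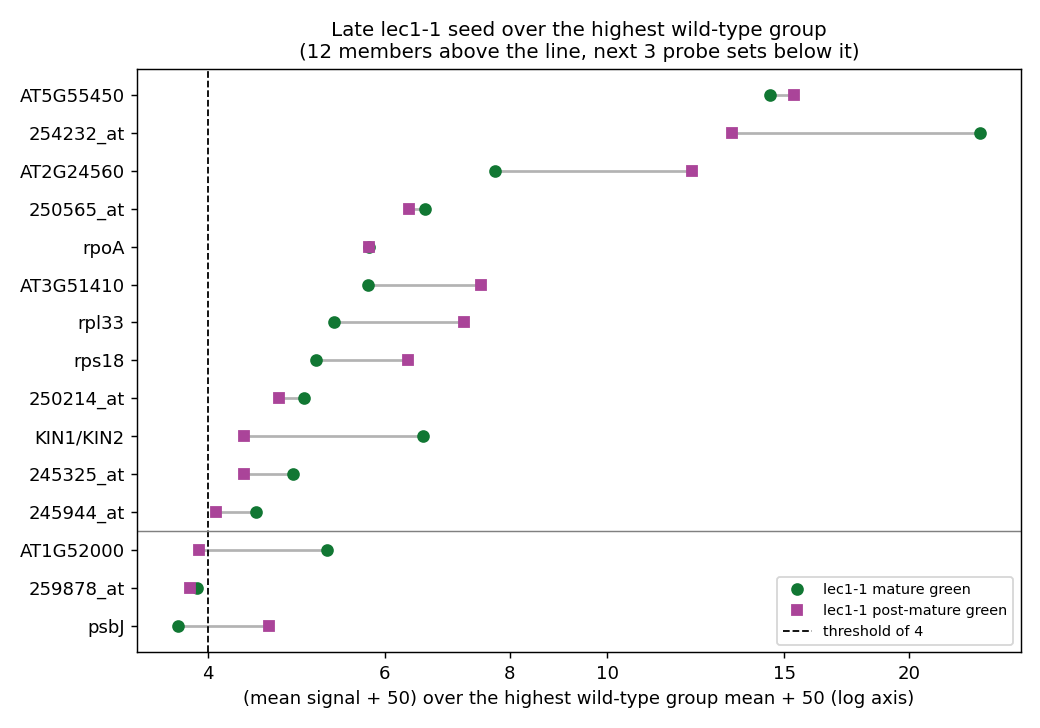
Mean signal plus 50 in mature green (circles) and post-mature green (squares) lec1-1 seed, divided by the same value of the highest wild-type group (log axis), for the 12 members and the next 3 probe sets, with the threshold of 4 dashed. AT5G55450, 254232_at and AT2G24560 lead, and the values pass through the threshold without a step.

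Within lec1-1 all members had a higher mean at the mature green than at the cotyledon stage. Since they were chosen for high mature green lec1-1 means, this is a description. On the signal-plus-50 scale the mature green mean was between 2.27 times (250565_at) and 132 times (KIN1 and KIN2) the cotyledon-stage mean, with a median of 18.5 over the 12 members. 250565_at had also risen earlier, from a mean signal of 330.2 at the globular stage to 1601.75 at the cotyledon stage. From mature green to post-mature green seed there was no common direction: by sign alone, 6 members were higher and 6 lower in the second. The ratio of the second to the first ran from 0.565 (254232_at) to 1.57 (AT2G24560) on the same scale. rpoA, at 1.00, was counted as higher, and the step was not tested. Which replicate was higher was mostly shared between the late stages, with replicate 1 higher at both for 5 members, among them rpoA, rpl33, rps18 and the KIN probe set, replicate 2 higher at both for 6, and AT3G51410 mixed. The replicate 1 arrays of late lec1-1 also had the highest median signals of the 20, 217.4 and 214.6, and their part in these differences was not tested. How many probe sets of the whole chip shared the higher replicate was not counted, so the counts of 5 and 6 only describe the members.

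Before the mature green stage the lec1-1 arrays had not entered the choice of members. The wild-type arrays of these stages had entered it as part of the ceiling, which holds them down for the members and limits what the counts between genotypes at 24 hours and at the cotyledon stage can show. Differences are on the log2(signal + 50) scale with their standard error, and a call means an adjusted p under 0.05 in limma over the 18459 probe sets with a signal of at least 100 on at least 2 arrays. All 12 members passed this filter, AT5G55450 and AT2G24560 only through their late lec1-1 arrays.

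At 24 hours no member was called between lec1-1 and wild type, 0 of 12, against 22 of 18459 probe sets, or 0.119%, and 823 at an unadjusted p under 0.05. The largest difference was that of KIN1 and KIN2, 0.82 ± 0.50 (adjusted p = 0.9999), and the median over the members was 0.07, against 0.01 over all probe sets. The arrays of the genotypes overlapped for rpoA, rpl33 and rps18, whose differences were 0.12 ± 0.28, 0.46 ± 0.41 and 0.02 ± 0.28.

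At the cotyledon stage 1 of 12 members was called, 250565_at, which was higher in lec1-1 by 1.92 ± 0.34 (adjusted p = 0.00676). Both lec1-1 arrays were above both wild-type arrays. Over all probe sets 12 were called higher, or 0.065%, and 131 were called in either direction, or 0.71%. The call ended when any 1 of the 4 arrays was left out (adjusted p between 0.0706 and 0.101, with a difference of 1.84 to 2.00) and with the stated lot as a term in the model (1.68, adjusted p = 0.196). AT3G51410 was lower in lec1-1 by 0.99 ± 0.34 without passing the test (adjusted p = 0.293), and the other 10 members had differences between -0.33 and 0.22.

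Whether the effect of lec1-1 changed from 24 hours to the cotyledon stage was tested as an interaction. None of 12 members was called, against 58 probe sets, or 0.314%, and 1219 at an unadjusted p under 0.05. With only the groups of the contrast in the model, 1 member was called higher, among 178 probe sets called. For 250565_at the effect was larger at the cotyledon stage by 1.71 ± 0.49 (adjusted p = 0.219).

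From 24 hours to the globular stage 5 of the 12 members fell in lec1-1 and none rose, on arrays that had no part in the choice of members. The labels of the 2 globular arrays state no scaling, unlike those of the other ATH1 arrays, and wild type has no globular group. Stage and any difference in processing therefore cannot be told apart in the steps to and from the globular stage. Over all probe sets 16.5% fell and 13.4% rose, 29.9% in all. rpoA fell by 2.64 ± 0.28 (adjusted p = 8.18e-07), from 2138.1 and 2526.0 to 327.0 and 334.9. rps18 fell by 1.68 ± 0.28 (adjusted p = 0.000124) and rpl33 fell by 1.40 ± 0.41 (adjusted p = 0.0129). All 3 plastid members were among the 5.

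The other fallers in this step were 245325_at, which fell by 1.39 ± 0.32 (adjusted p = 0.0026), and the KIN probe set, which fell by 1.65 ± 0.50 (adjusted p = 0.0168). The latter rests on its globular arrays of 113.6 and 784.6, which are far apart: without replicate 1 the fall was 0.47 (adjusted p = 0.472), and the call also ended without either 24-hour array (adjusted p of 0.0783 and 0.0744), with the stated lot as a term (0.0738) and with only the contrast's groups in the model (0.0798). For 245325_at the call ended without globular replicate 2 (a fall of 0.88, adjusted p = 0.0784). For rpl33 it ended without 24-hour replicate 2 (adjusted p = 0.134) or globular replicate 2 (adjusted p = 0.134). rpoA and rps18 were called without any 1 array.

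From the globular to the cotyledon stage 4 of 12 members rose in lec1-1 and 1 fell. Of all probe sets 8.27% rose and 6.9% fell, 15.2% in all. 250565_at rose by 2.12 ± 0.34 (adjusted p = 0.000288). The plastid members came back up, rpoA by 1.92 ± 0.28 (adjusted p = 0.000114), rpl33 by 1.93 ± 0.41 (adjusted p = 0.00285) and rps18 by 1.63 ± 0.28 (adjusted p = 0.000479). 245325_at fell again, by 1.36 ± 0.32 (adjusted p = 0.0066).

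These calls also rest on few arrays. For rpl33 the call ended without cotyledon-stage replicate 2, the array of 845.0 (1.26, adjusted p = 0.0902). For 245325_at it ended without cotyledon-stage replicate 1 (adjusted p = 0.0744) and without globular replicate 1 (adjusted p = 0.163), and with signals set to at least 100 (adjusted p = 0.058). Both lec1-1 contrasts share the globular arrays, so the fall and the rise of the plastid members are not separate observations.

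**Figure D3:**
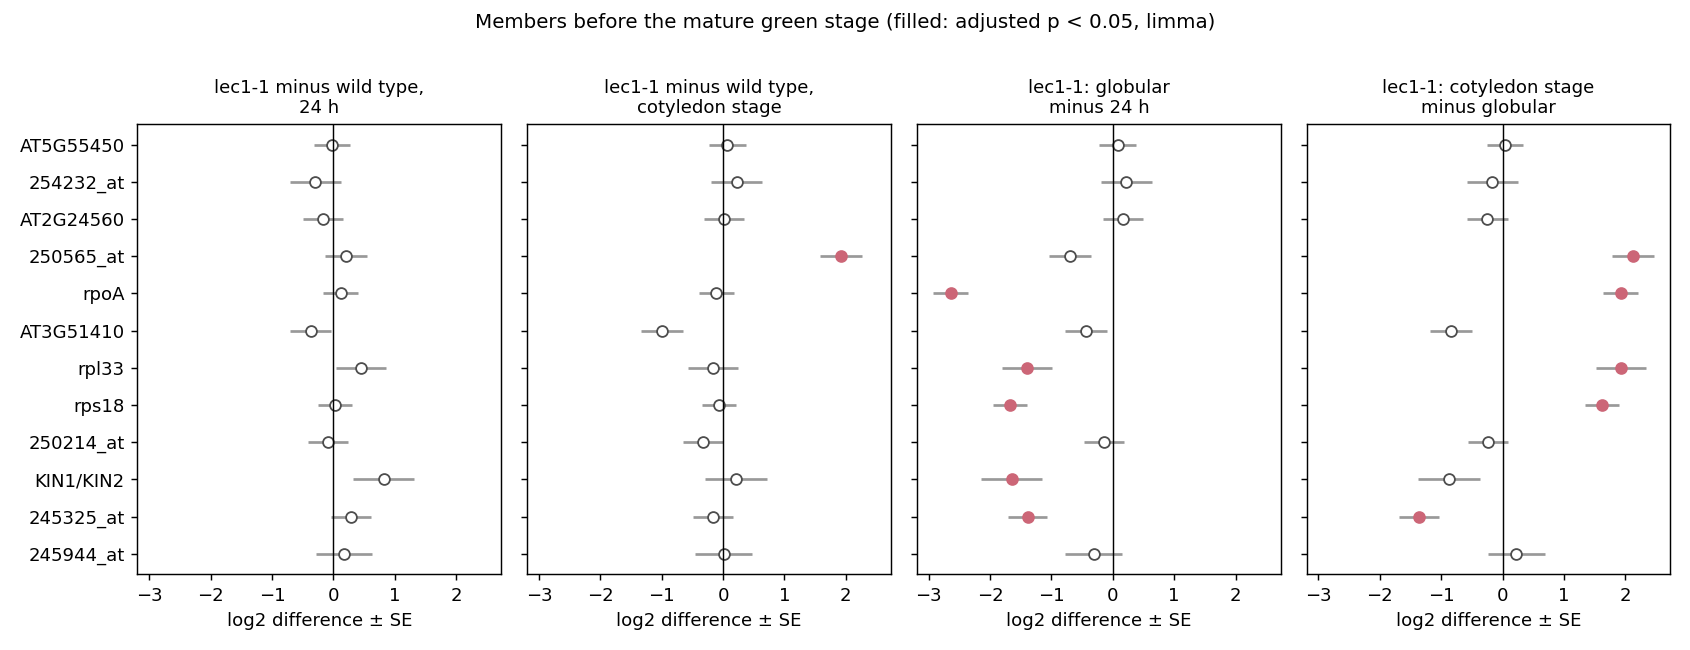
Log2 difference with its standard error for each member in the 4 contrasts before the mature green stage, filled where the adjusted p in limma was under 0.05. The panels of lec1-1 against wild type hold 1 filled point, 250565_at at the cotyledon stage, while rpoA, rpl33 and rps18 are filled in both panels within lec1-1, below 0 and then above it.

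The members did not share 1 profile outside late lec1-1 seed. Over the means of the 8 other ATH1 groups, Pearson's r between members (66 pairs, log2 scale) ran from -0.91 to 0.92 with a median of 0.15. The highest value joined rpoA and rps18 (0.92), and rpl33 stood at 0.81 with rps18 and 0.77 with rpoA. A second cluster joined 254232_at with the KIN probe set (0.89), 245944_at (0.85) and AT5G55450 (0.85), and the lowest value was that of AT2G24560 with rpl33 (-0.91). These 8 means share arrays and scaling across all pairs, and AT2G24560 and AT5G55450 were near background in all of them, so the values only describe the profiles.

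AtGenome1 holds lec1 seed of the mid-maturation stage, material that the choice of members had not used, and 2 members have a probe set there. Values are average differences, and for ratios each array's value was set to at least 250 before the group means were taken. A probe set counted as higher when its ratio was at least 2 and the arrays did not overlap. With 1 sample a group there is no test. The probe set of KIN1 and KIN2 read 74748.3 and 87576.8 in lec1 mid-maturation seed, 375.8 and 168.9 in wild-type mid-maturation seed, and 39403.7 and 36492.1 in wild-type late-maturation seed. At mid-maturation lec1 was thus far above wild type, with a ratio of 259 that depends on the minimum (162 with 500), and at late maturation the wild type itself was high.

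At 24 hours the KIN probe set read 12201.8 and 12625.8 in lec1 against 5443.8 and 5255.4 in wild type on AtGenome1, a ratio of 2.32, so it counted as higher there as well. Of 8247 probe sets 4.53% counted as higher at mid-maturation and 2.68% at 24 hours. AT2G24560 read 306.6 and 355.8 in lec1 and 180.5 and 60.2 in wild type at mid-maturation. Its arrays did not overlap, but its ratio was 1.32 and it did not count as higher (2.36, and counted, with a minimum of 100). In 24-hour seed it read 24.2 and 125.8 in lec1 and 81.4 and 165.3 in wild type, which overlap.

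**Figure D4:**
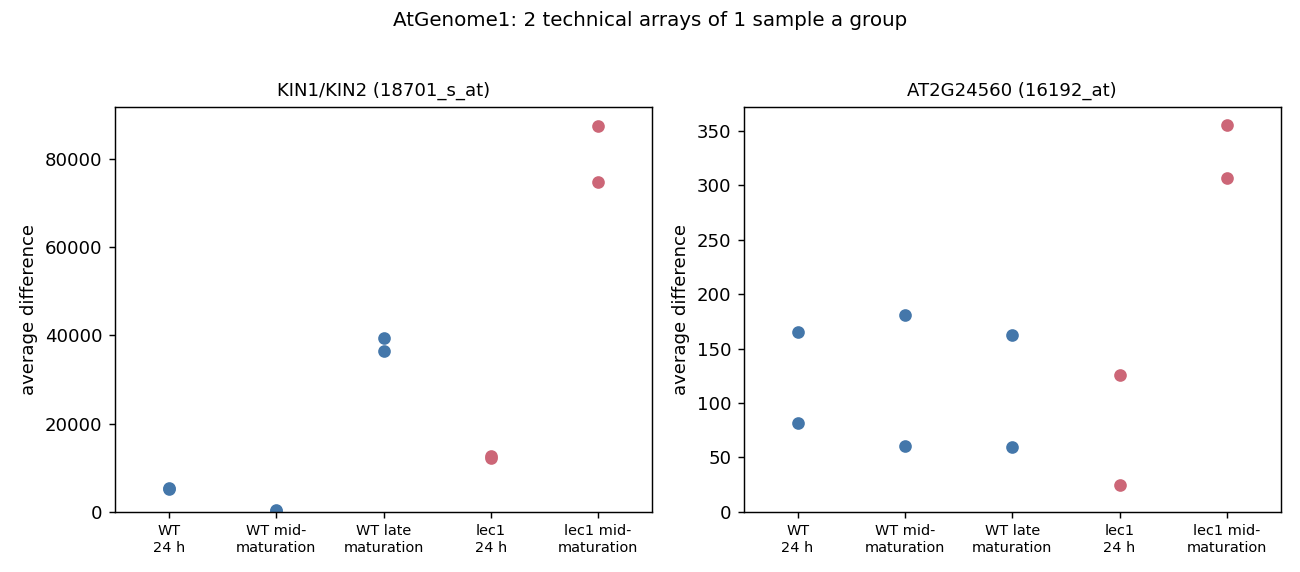
Average difference on the 2 technical arrays of each AtGenome1 group, blue for wild type and red for lec1, for the shared probe set of KIN1 and KIN2 and for AT2G24560. For KIN1 and KIN2 lec1 mid-maturation seed is highest and wild-type late-maturation seed follows, with wild-type mid-maturation seed near 0, and for AT2G24560 the 2 lec1 mid-maturation points lie above all the others.

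The plastid members stood in a larger group that moved the same way. ATH1 names 69 plastid-encoded genes with 1 probe set each, a grouping made here after the members were known. Of the 66 that are not members, 28 were called higher in mature green lec1-1 seed and none lower, and 53 were called higher in post-mature green seed and none lower. Over all probe sets 15.7% were called higher and 13% lower in mature green seed (28.7% in all), and 23.7% higher and 20.5% lower in post-mature green seed (44.1% in all). The median difference of the 66 from wild type of the same stage was 0.96 and then 1.80, against 0.02 and -0.02 over all probe sets.

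Against the highest wild-type group, seedlings included, most of these plastid genes were not raised as the members were. The median of the smaller fold was 1.09 over the 66, against 0.564 over all probe sets, and 21 of the 66, or 31.8%, had all late lec1-1 arrays above all wild-type arrays. The nearest to the members were psbJ, the ribosomal protein genes rps15 and rps19, and rpoC1, with smaller folds of 3.73, 3.56, 2.51 and 2.72. psaJ, the neighbour of rpl33, stood at 0.566, petD, the neighbour of rpoA, at 1.55 and rpl20, the neighbour of rps18, at 1.93.

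By function, 11 of the 13 other ribosomal protein genes were called higher at both late stages. Of the other RNA polymerase subunit genes, rpoC1 was higher in lec1-1 by 2.20 ± 0.40 and 2.31 ± 0.40 (adjusted p = 0.000371 and 0.000122), rpoC2 was higher by 1.87 ± 0.26 and 0.68 ± 0.26 (adjusted p = 1.77e-05 and 0.0383), and rpoB stood at 0.02 ± 0.38 and -0.34 ± 0.38 (adjusted p = 0.979 and 0.497). Genes of the photosystems were called higher for 5 of 20 in mature green and 15 of 20 in post-mature green seed, and those of the NDH complex for 1 of 10 and then 8 of 10. The shares called higher over all probe sets were 15.7% and 23.7% at these stages. These counts compare the genotypes within a stage, and the step between the late stages was not tested. For psaI the lec1-1 mean fell from 2742.6 to 1528.15 while the wild-type mean fell from 1283.35 to 161.9. For psbM the lec1-1 mean rose from 16327.6 to 22178.95 while the wild-type mean fell from 13667.35 to 6091.2. Before the mature green stage, none of the 69 was called between genotypes at 24 hours or at the cotyledon stage, where 0.119% and 0.71% of all probe sets were. Within lec1-1, members included, 15 of 69 fell to the globular stage and 10 of 69 rose from it. Among all probe sets 16.5% fell in the first of these steps and 8.27% rose in the second.

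**Figure D5:**
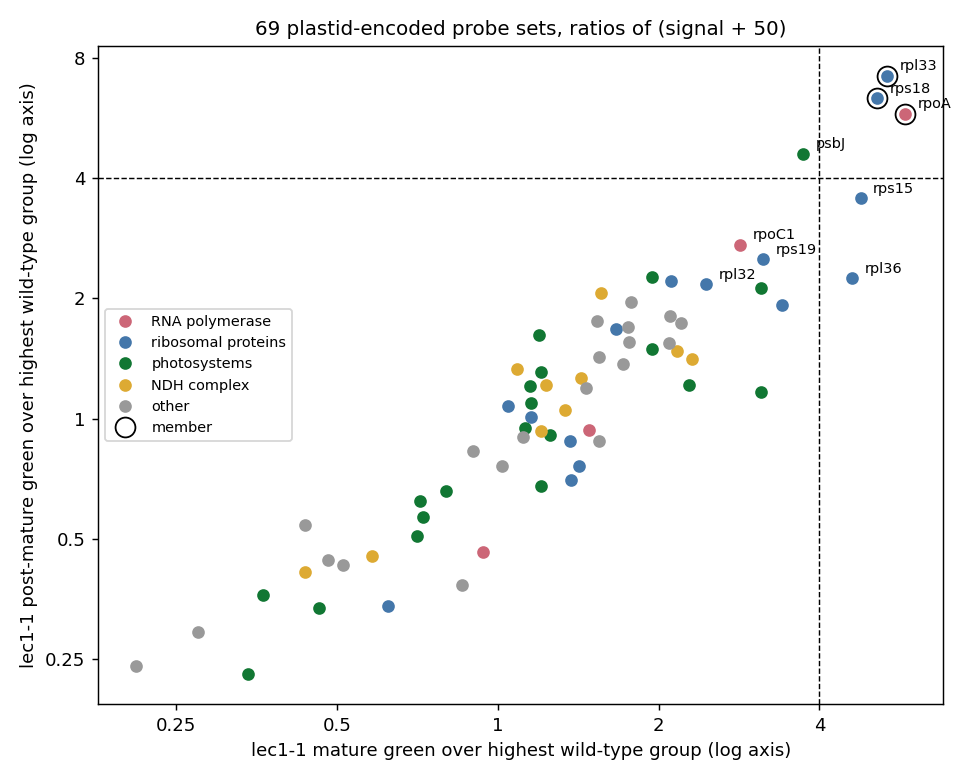
Ratio of signal plus 50 in late lec1-1 seed to the highest wild-type group for 69 plastid-encoded probe sets, mature green on the x axis and post-mature green on the y axis (both log), with dashed lines at 4 and the 3 members circled. Only the 3 members lie beyond both dashed lines, and psbJ, rps15 and rpl36 lie beyond 1 of them.

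No measured neighbour of a named nuclear member stood above the highest wild-type group at both late stages. Members without a gene name were not placed, and neighbours were not compared with wild type of the same stage. Among the 3 genes on either side of AT2G24560, AT3G51410 and the KIN pair that have a named probe set, the smaller fold over the wild-type ceiling ran from 0.113 to 0.927, and around AT5G55450 no neighbour had one. KIN1 and KIN2 are themselves neighbours in the TAIR10.1 gene order.

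Of 20 listed abscisic acid, cold and drought response genes, KIN1 and KIN2 among them, 4 had a probe set that names 1 gene. In mature green seed none of the 4 was called, with a median of 0.46. In post-mature green seed COR47 was higher in lec1-1 by 1.55 ± 0.44 (adjusted p = 0.00734) and COR15A by 1.38 ± 0.52 (adjusted p = 0.0383). LTI30 was lower in lec1-1 by 1.22 ± 0.30 (adjusted p = 0.00285), and COR15B stood at 0.62 ± 0.51 (adjusted p = 0.352). These genes encode proteins that accumulate in cold or drying tissue. The COR15A call ended without any 1 of the 4 arrays (adjusted p of 0.0575 to 0.193) and with signals set to at least 100 (0.21, adjusted p = 0.556). The COR47 call ended without wild-type replicate 2 (0.73, adjusted p = 0.188) or lec1-1 replicate 1 (1.00, adjusted p = 0.137), and the LTI30 call ended without lec1-1 replicate 2 (a fall of 0.91, adjusted p = 0.058).

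Other lists of stress and defence genes were thinly covered by named probe sets. Of 14 genes of ER bodies, lectins and myrosinase, known for plant defence, 6 were measured, and 6 were called higher in mature green and 5 in post-mature green seed. Over all probe sets 15.7% and 23.7% were called higher at these stages (28.7% and 44.1% called in all). The list was chosen with earlier results of these data known, so the counts are a description. In post-mature green seed PYK10, the main beta-glucosidase of ER bodies, was higher in lec1-1 than in wild type by 6.79 ± 0.41 (adjusted p = 2.96e-10), the lectin gene JAL34 by 4.65 ± 0.32 (adjusted p = 1.37e-09), AT1G54020 by 3.92 ± 0.37 (adjusted p = 8.74e-08) and NAI2 by 2.54 ± 0.37 (adjusted p = 1.99e-05). Wild-type seedlings had higher means than this lec1-1 group: 17681.85 against 8361.55 for PYK10, 7896.1 against 4403.75 for JAL34 and 1408.65 against 335.15 for NAI2. AT1G54020 read 1821.6 in wild-type 24-hour seed against 1218.8 in this lec1-1 group. Of 16 jasmonate genes 3 were measured, and the thionin gene THI2.1 was higher in lec1-1 by 6.33 ± 0.39 (adjusted p = 3.54e-10), while JMT and PDF1.2 stood at -0.21 ± 0.32 and 0.06 ± 0.39. THI2.1 read 35063.35 in wild-type and 37718.8 in lec1-1 24-hour seed, against 8669.15 in post-mature green lec1-1 seed. The senescence gene SAG101, 1 of 11, was higher in lec1-1 by 1.79 ± 0.34 (adjusted p = 0.000285). In post-mature green seed its mean was 235.9 in lec1-1 and 38.25 in wild type, against 181.45 and 172.65 in 24-hour seed. The lists on salicylate and on cuticle and lipid transfer had no named probe set that was analysed here.

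Markers of other tissues that a seed sample could hold were measured in part. Of the seed coat markers 4 of 9 were measured, and their summed signal was 9354.6 to 11027.9 in lec1-1 against 11626.6 to 15986.2 in wild type in mature green seed, and 1885.3 to 2481.5 against 2360.6 to 2546.2 in post-mature green seed. Only DELTA-VPE was called, and it was lower in lec1-1 by 0.63 ± 0.24 in post-mature green seed (adjusted p = 0.0417). This call ended without any 1 of the 4 arrays (differences of -0.72 to -0.55). The silique wall marker ALC, 1 of 5 measured, was at 347.1 to 471.1 and 392.9 to 402.6 in late lec1-1 seed against 179.3 to 190.6 and 133.6 to 146.5 in wild type. In the later stage ALC was higher in lec1-1 by 1.24 ± 0.17 (adjusted p = 8.22e-06). It was highest in 24-hour seed, at 6179.6 and 7730.5 in wild type. The part of silique wall tissue in the members' signal was not tested.

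Leaf photosynthesis markers, 3 of 8 measured, summed to 59500.6 to 61191.2 in seedlings and to 2396.0 to 3824.0 over the late lec1-1 arrays. The 3 markers were called higher in post-mature green lec1-1 seed, among them PRK by 2.59 ± 0.29 (adjusted p = 7.71e-07), and 2 of them lower in mature green seed. Endosperm markers, 2 of 8, and the trichome marker TRY, 1 of 10, had no call at either late stage, and the flower marker A9, 1 of 12, was below 100 on all 20 arrays.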

How the data were processed

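ATH1 and AtGenome1 tables hold intensity values on a linear scale, which the authors made and deposited. Per the labels, biotinylated cRNA was hybridized and the scans were analysed with MAS 5.0 scaled to 500 (ATH1, signal) or MAS 4.0 scaled to 2500 (AtGenome1, average difference), versions also named in the submitters' processing notes. The labels of the 2 globular arrays state no scaling. Probe detection calls were not used here. Gene names came from the platform annotation, updated through TAIR10.1, and 8730 of 22746 ATH1 probe sets had none.

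Groups came from the sample labels. From the intensity values as deposited, log2(signal + 50) was fitted with limma 3.58.1 (R 4.3.3; lmFit and eBayes with trend, 1 model of 10 groups, 20 arrays, two-sided, Benjamini-Hochberg over 18459 probe sets). A dim filter kept probe sets with a signal of 100 on at least 2 arrays. The fit was tested on simulated data. Ratios used group means plus 50, drawn up with Python 3.11.15. AtGenome1 has 1 sample a group and was not tested.

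The members and gene lists were chosen with earlier results of these data known. Named were all 12 members, the 3 probe sets outside the threshold, and of each list up to 4 genes by adjusted p in post-mature green seed; neighbouring and plastid genes were named after their values were seen. Replicate numbers were not used to pair arrays in the main model. Deviations of same-numbered arrays correlated with r between -0.073 and 0.15 over 45 pairs of groups, and 2 pairs were over 0.1. The alternatives tried were other scalings, offsets, filters, models and left-out arrays.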

Additional observations from a re-analysis of the deposited data

How the results depend on the processing

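Of the 12 members, 11 met the choice with an offset of 100, with geometric means or with quantile normalization, each of which lost 245944_at. A threshold of 3 gave 26 members and a threshold of 6 gave 4, and leaving out 1 array gave 11 to 13, of which 10 to 12 were among the 12 members. At 24 hours the count of called probe sets was 39 with signals set to at least 100 and 5 to 12 with 1 array left out. At the cotyledon stage it was 238 with signals set to at least 100, 83 with the stated lot as a covariate, 326 with only the groups of the contrast in the model, and 45 to 69 with 1 array left out, and the members called higher were 0 with the lot as a covariate and 0 with 1 array left out. From 24 hours to the globular stage 3 to 4 members were called lower with 1 array left out. From the globular to the cotyledon stage 1454 to 1965 probe sets were called with 1 array left out, and the members called lower were 0 with signals set to at least 100, 2 with the lot as a covariate and 0 to 1 with 1 array left out. In mature green seed 2974 were called with the lot as a covariate and 2648 with only the groups of the contrast. On AtGenome1, 1762 probe sets counted as higher or lower at mid-maturation at 1.5-fold, and at 24 hours 591 did with a minimum of 100, 239 with a minimum of 500 and 1168 at 1.5-fold. The cause of these changes was not tested, beyond the smaller number of arrays or groups in the models that leave some out. With the replicate number as a block, 18 probe sets were called at 24 hours, 140 at the cotyledon stage, 5633 from 24 hours to the globular stage, 2895 from there to the cotyledon stage, 5397 in mature green and 8224 in post-mature green seed, and the counts of members called were the same as without it. Single probe sets were followed over the alternatives only where the main model called them, so a gained call could not appear. Ratios on AtGenome1 were followed with them. Of these values 278 kept the call or, for a ratio, stayed within 1.5-fold of the main value. Another 36 lost the call, 2 ratios on AtGenome1 moved and none was reversed. The count of promoter motifs that was planned was not run. With 2 arrays a group, a left-out array leaves a lone array assumed to vary like the other groups, and signals below 100 carry little information on ratios.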
